A study of Mus musculus with 3 samples.

Results

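CTCFL is a testis-specific paralog of the chromatin factor CTCF, and both proteins recognize similar DNA through a block of zinc fingers. Here the position of CTCFL peaks was examined at 94 protein-coding genes from 6 families of developmental transcription factors, out of 22265 protein-coding genes with the same annotation. Members were chosen by symbol from the GENCODE annotation on mm9 (Sox, Fox followed by a letter, Pax, Tbx, Gata or Lhx, each with a number). The rule uses no measured value, but it was set with earlier results of these data known. Sox2 and Tbx3 were left out. This gave 17 Sox, 42 Fox, 9 Pax, 12 Tbx, 6 Gata and 8 Lhx genes. Genes of these families that the annotation lists as anything but protein-coding were no members, and Foxf1a was not a member because its symbol ends in a letter.

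The peaks come from mouse embryonic stem (ES) cells that carried rtTA at the ROSA26 locus and a doxycycline-responsive CTCFL-V5-GFP transgene. For the induced sample the cells received doxycycline for 3 days, GFP-positive cells were sorted, and chromatin was precipitated with a V5 antibody. Non-induced cells of the same line with the same antibody, and a CTCF precipitation, made up the remaining conditions, each with 1 library. One list of peak intervals was used, that of the induced cells, with 7436 peaks on mm9. It is longer than the set of CTCFL sites the study describes, and the step between them is not given in the sources used here. The list has no peak heights, read numbers or p-values, so depth per peak is unknown. Without replicates no spread between samples can be given and no test between conditions was made, and the non-induced library, which the study names as the control for the V5 precipitation, was not analysed here. CTCFL was overexpressed from a transgene in a cell type that is not its natural one, which limits these cells as a model of the germ line. Expression was not measured in this data set, so the ES cell identity was not checked against marker genes.

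Each of these families shares a DNA-binding domain: the HMG box in Sox, the forkhead in Fox, the paired domain in Pax, the T-box in Tbx, paired zinc fingers in Gata, and a homeodomain joined to LIM domains in Lhx proteins. The genes specify germ layers, organs and cell lineages in the embryo. In ES cells many of them are known to be silent or nearly so, with CpG-rich promoters that carry active and Polycomb-type histone marks together, while some, such as Foxd3 and Foxo genes, are known to be active there.

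For each gene a peak was assigned by its midpoint to the promoter interval (from 2 kb upstream to 1 kb downstream of a transcription start site, TSS, of a protein-coding transcript), to the gene body, or to the window of 40 kb around a TSS. A promoter peak was found at 16 of the 94 members, which is 17.0% (95% Wilson interval 10.8 to 25.9%), beside 11.3% of all protein-coding genes. A gene body peak was found at 14 members, or 14.9% (interval 9.08 to 23.5%), beside 15.0%. A peak within 40 kb of a TSS was found for 45 members, or 47.9% (interval 38.1 to 57.9%), beside 41.7%. All 3 intervals contain the share over all genes, so over the 94 genes together no difference from the background was detectable in these windows as defined. The promoter interval is close to this limit: with only the 5′ end of each gene as its TSS, the members stayed at 17.0% and all genes fell to 9.99%, below the lower bound of 10.8%. The intervals cover counting error over genes only. In all, 46 members had a peak in at least 1 of the windows, and these were 67 different peaks, since neighboring members share some of them. Foxd2 and Foxe3 share 2 peaks, and Tbx2 and Tbx4 share 1.

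**Figure D1:**
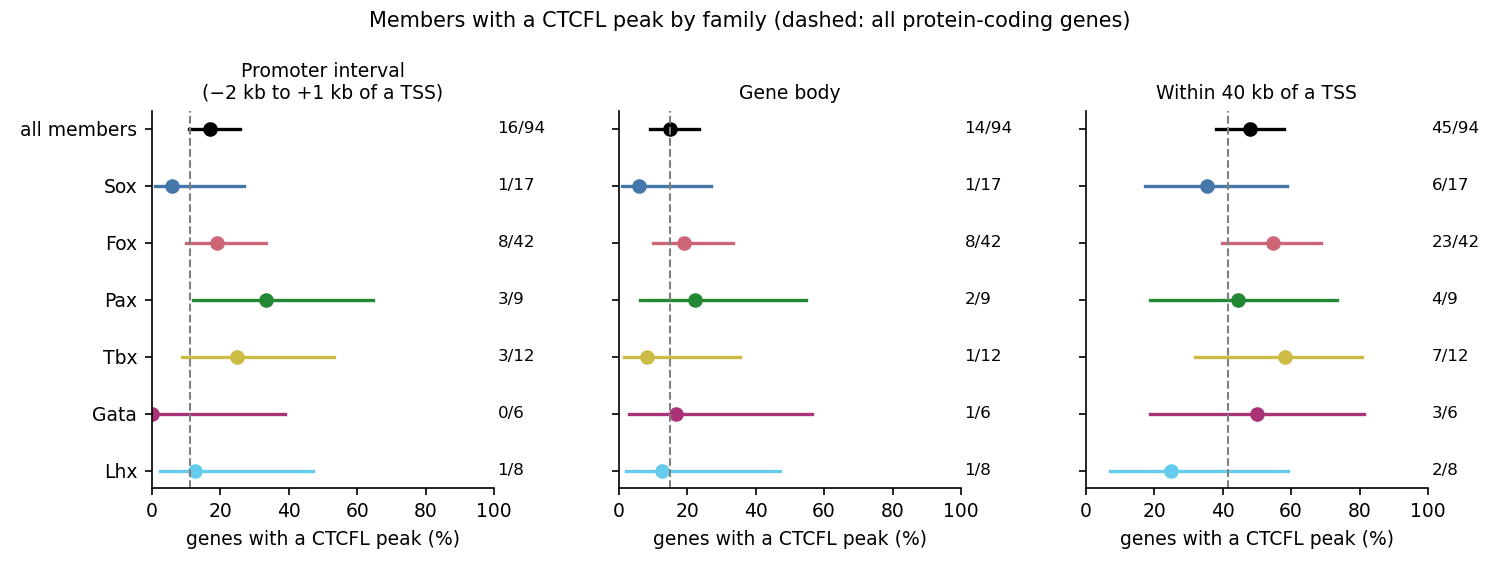
Share of members with a CTCFL peak (x axis, percent of genes) in the promoter interval, in the gene body and within 40 kb of a TSS, for all 94 members and for each family (y axis). Points are shares, bars are 95% Wilson intervals, the numbers at the right are genes with a peak over genes in the family, and dashed lines mark all protein-coding genes (11.3, 15.0 and 41.7%). The line crosses the bar in every row except Pax in the promoter panel, whose bar starts at 12.1%.

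The families differed in their counts, but most intervals were wide. Promoter peaks were found at 8 of 42 Fox genes (19.0%), 3 of 9 Pax genes (33.3%), 3 of 12 Tbx genes (25.0%), 1 of 17 Sox genes (5.88%) and 1 of 8 Lhx genes (12.5%). None of the 6 Gata genes had one, which with so few genes still allows a share of up to 39.0%. The interval of the Pax genes, 12.1 to 64.6%, was the only one that did not contain the background of 11.3%, and it rests on 3 genes out of 9 and was not adjusted for the 6 families viewed. Within 40 kb the shares ranged from 2 of 8 Lhx genes (25.0%) and 6 of 17 Sox genes (35.3%) to 23 of 42 Fox genes (54.8%) and 7 of 12 Tbx genes (58.3%). Pax genes had 4 of 9 and Gata genes 3 of 6 with such a peak. No test between families was made.

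Of the Sox genes, Sox8 alone had a promoter peak. Sox8, Sox9 and Sox10 form the SoxE group, known for roles in the neural crest and the gonad. The Sox8 peak was 495 bp wide and centered 344 bp upstream of the TSS (chr17:25707728-25708222), outside the gene. Sox10 had a narrow peak of 250 bp in intron 2 (chr15:78993333-78993582), 1458.5 bp downstream of its nearest TSS, and a further one 38160.5 bp downstream. The Sox9 peak was 9213.5 bp downstream of the TSS. All 3 SoxE genes thus had a peak within 40 kb, as did 3 of the other 14 Sox members, Sox15, Sox18 and Sox30. Sox5 and Sox6, which act in cartilage formation and have gene bodies of 953553 and 567401 bp, held no peak. The grouping of the SoxE genes was made after their values were seen.

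Among the Fox genes, all 3 Foxa members had a promoter peak. These are pioneer factors of endoderm and liver. No other Fox letter with 2 or more members reached its full number: Foxb had 1 of 2, Foxe 1 of 2, Foxd 1 of 4, Foxo 1 of 4 and Foxp 1 of 4, and 13 of the 19 letters had none. The letters were compared after the values were seen. The Foxa1 peak lay in intron 1, with its midpoint 882 bp downstream of the TSS, and was 481 bp wide. A wider peak of 737 bp lay in coding exon 2 of the same gene, 3652 bp downstream, and a peak 29936 bp upstream lay 240 bp from the TSS of Ttc6. The Foxa2 peak (490 bp) was centered 1755.5 bp upstream of its TSS and was the single peak within 40 kb. The Foxa3 peak (456 bp) was centered 159.5 bp upstream, and further Foxa3 peaks lay 16945.5 and 24588.5 bp downstream.

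The other Fox promoter peaks lay at genes of varied roles. At Foxd1, a gene of kidney stroma, the peak was 445 bp wide and its midpoint lay 23 bp upstream of the TSS, the shortest distance of any member, and a narrow peak of 257 bp lay 6675 bp upstream. At Foxe1, a thyroid factor, the peak (367 bp) lay in the coding exon, 831 bp downstream, with 2 further peaks at 38322 bp upstream and 31631 bp downstream. At Foxo6, an insulin-regulated factor, it was 461 bp wide and 645 bp upstream, and at Foxb2 it was 529 bp wide and 726 bp upstream. At Foxp4, a factor of lung and gut, the peak was 311 bp wide and lay in untranslated exon 1, 96 bp downstream of the TSS. Foxd3, a factor of neural crest and early embryo, had a 640 bp peak in its coding exon whose midpoint lay 1000.5 bp downstream, and so just outside the promoter interval. A second peak was 7501 bp downstream. The Foxd3 peak overlaps the interval and was counted when any base of a peak sufficed.

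The Pax promoter peaks were at Pax1, Pax5 and Pax9. Pax1 and Pax9 are related genes of the sclerotome and pharyngeal pouches, and Pax5 is a B-cell factor. The Pax1 peak was 740 bp wide, among the widest of the members, and was centered in coding exon 1, 577.5 bp downstream of the TSS. A second Pax1 peak of 289 bp lay 22177 bp downstream, inside the annotated gene span but outside its protein-coding transcripts. The Pax5 peak (482 bp) lay in untranslated exon 1, 185.5 bp downstream of a TSS, and it was the one peak in a gene of 180302 bp. The Pax9 peak (583 bp) was 1778 bp upstream. Pax2, Pax3, Pax6, Pax7 and Pax8, factors of kidney, neural tube, eye, muscle and thyroid, had none within 40 kb, and the nearest of these was 52420 bp upstream of Pax6.

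The Tbx promoter peaks were at Tbx2, Tbx6 and Tbx18, known for roles in the heart, the presomitic mesoderm, and the epicardium and somites. The Tbx18 peak was 697 bp wide and 128 bp upstream of the TSS, and a second peak lay in intron 6, 22899 bp downstream. The Tbx2 peak (395 bp) was 96 bp upstream, with other peaks 9185 bp upstream and 10800 and 18382 bp downstream. The last of these lay 35489 bp upstream of Tbx4. The Tbx6 peak (540 bp) was 1349.5 bp upstream, with others 11298.5, 14420.5 and 17767.5 bp downstream. Tbx2, Tbx6 and Tbx10 had 4 peaks within 40 kb each, more than any other member: 30 members had 1, 9 had 2 and 3 had 3 (Foxa1, Foxa3 and Foxe1). The peak of Tbx6 at 14420.5 bp had unique 36-base windows over only 72.6% of its length, the single peak near members below 90%.

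Among the Lhx genes, Lhx1, which acts in head and kidney formation, had a 330 bp promoter peak 636.5 bp upstream, and Lhx5, a forebrain gene, had a 438 bp peak in untranslated exon 5, 9133.5 bp downstream. The other 6 Lhx genes had none within 40 kb, the nearest being 89830 bp downstream of Lhx9. Of the Gata genes, Gata4, a factor of heart and endoderm, had a 739 bp peak in intron 1, 10680 bp upstream of an internal TSS. Gata2, a regulator of blood stem cells, had a peak 4243 bp upstream, and Gata5 one 16127.5 bp upstream. Gata1, Gata3 and Gata6 had none within 40 kb.

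**Figure D2:**
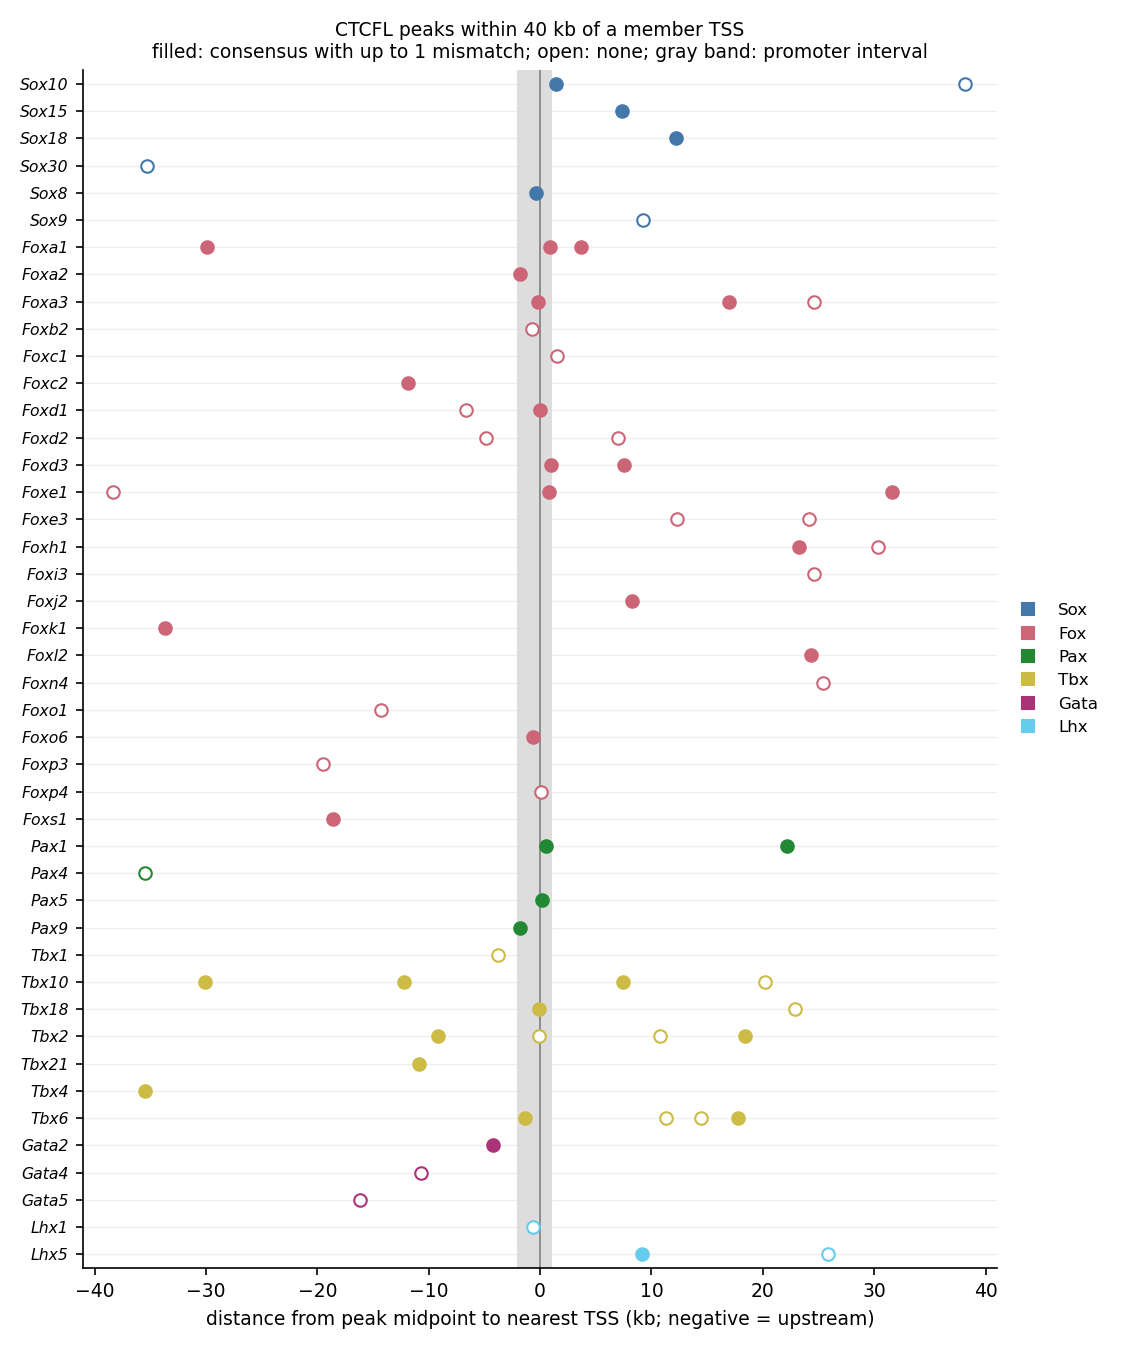
Positions of CTCFL peak midpoints (x axis, distance to the nearest TSS of the gene in kb, negative upstream) for 44 members with a peak within 40 kb (y axis, colored by family). Each circle is 1 peak, filled where the peak holds the consensus with up to 1 mismatch and open where it does not, and the gray band is the promoter interval. All 3 Foxa genes have a filled circle in the band, whereas no Gata gene has a circle there.

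Over all families, 11 of the 16 promoter peaks lay upstream and 5 downstream of the nearest TSS, and 13 were within 1 kb of it. In each of the 16 the member was the nearest protein-coding gene. The start of a transcript from a gene that is not protein-coding lay nearer than the member's own TSS in 4 of them, or 25.0% (interval 10.2 to 49.5%), beside 3.39% of the 2568 pairs of a promoter peak and a gene over all protein-coding genes. These were the peaks of Sox8, 114 bp from the start of the lincRNA 2810468N07Rik, of Pax1, 93.5 bp from AI646519, of Pax9, 71 bp from Gm15524, and of Lhx1, 373.5 bp from the lincRNA 1500016L03Rik. Outside the promoter interval, the Tbx1 peak lay 195.5 bp from the start of 4930588K23Rik. The difference between the 2 shares was not tested, and how many such transcripts the annotation lists beside members was not compared with other genes.

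At the limits of the windows, Pax9 (1778 bp) and Foxa2 (1755.5 bp) were the members farthest upstream that were still inside the 2 kb limit, and the next peaks upstream were those of Tbx1 at 3776.5 bp and Gata2 at 4243 bp. Downstream, Foxa1 (882 bp) and Foxe1 (831 bp) were the last inside 1 kb, and Foxd3 (1000.5 bp) and Sox10 (1458.5 bp) were the first outside. At the 40 kb limit, peaks of Foxe1 (38322 bp upstream) and Sox10 (38160.5 bp downstream) were the last inside, and peaks 40904 bp downstream of Foxj1 and 41346 bp upstream of Foxn4 were the first outside.

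The members have CpG-rich promoters more often than other genes. By the rule used here (an observed to expected CpG ratio of at least 0.6 and a GC content of at least 55% within 500 bp on either side of a TSS), 65 of the 94 members were CpG-rich (69.1%), beside 43.0% of all protein-coding genes. A promoter peak was found at 12 of the 65 CpG-rich members, or 18.5% (interval 10.9 to 29.6%), beside 18.9% of all genes with such promoters. Among the 29 other members 4 had one, or 13.8% (interval 5.50 to 30.6%), beside 5.46%. These 4 were Foxa3, Pax5, Tbx6 and Tbx18, and the lower bound of their share lies just above the background. Foxa3 (ratio 0.595) and Tbx18 (ratio 0.754, GC content 54.5%) fell just short of the CpG-rich rule. This difference may therefore depend on where the limits of the rule were set, and other limits were not tried. The members' share among CpG-rich promoters was close to that of all genes with such promoters, within a wide interval. Whether CpG content bears on the 17.0% of all members beside 11.3% was not tested.

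The nearest peak was at a median distance of 49518 bp from the TSS of a member, with quartiles of 7363 and 181035 bp, and of 60788 bp over all protein-coding genes. Within 5 kb, 23 members had a peak, or 24.5% (interval 16.9 to 34.05%), beside 15.5%, and within 20 kb 37 members, or 39.4% (interval 30.1 to 49.5%), beside 29.2%. Both intervals lie above the share over all genes, as do those at 2 and 10 kb. Among CpG-rich promoters the same shares were 27.7% (interval 18.3 to 39.6%) beside 23.5% within 5 kb, and 43.1% (interval 31.8 to 55.2%) beside 38.8% within 20 kb, and these intervals contain the background. At 100 kb the CpG-rich members stood at 63.1% beside 73.0%, and at 200 kb at 76.9% beside 85.2%, the background lying within the interval at 100 kb (50.9 to 73.8%) and just within it at 200 kb (65.4 to 85.5%). The windows contain each other, so these are not separate observations. The 40 kb windows of the members together held 66 peaks on 8.21 Mb, or 8.03 per Mb, beside 5.31 per Mb for the windows of all genes. Overlapping windows were merged for both values, and each peak was counted once. The members' 69 pairs of a gene and a peak fell on these 66 peaks, whereas the 14459 pairs over all genes fell on 5862. Merging thus acted unequally on the 2 densities, and they do not show a surplus at members. No interval was given for them, and CpG-rich promoters were not compared in this way.

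**Figure D3:**
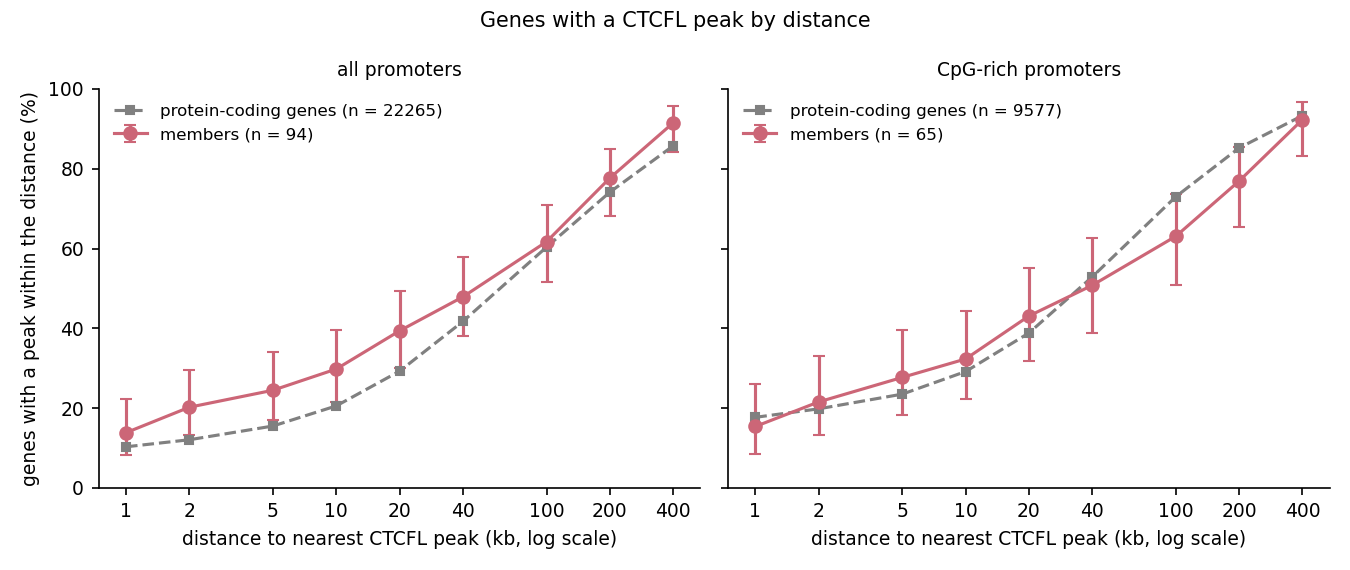
Percent of genes (y axis) whose nearest CTCFL peak midpoint lies within the distance on the x axis (kb, log scale), for members (circles, with 95% Wilson intervals) and protein-coding genes (squares). Left, all promoters (94 members): at 5 and 20 kb the members stand at 24.5 and 39.4% and the background at 15.5 and 29.2%. Right, CpG-rich promoters only (65 members): the squares run within the intervals at every distance.

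The 49 members without a peak within 40 kb included the 2 genes at the greatest distance, Foxp2, a factor of brain and lung development whose nearest peak was 1043803 bp downstream, and Sox5 at 885654.5 bp upstream. Foxp1, Foxp2 and Foxn3, with gene bodies of 341195, 540629 and 255072 bp, held no peak, although Foxp4 did. Of the 15 members of 60 kb or longer, 3 had a gene body peak (Pax5, Foxo3 and Gata4) (20%, interval 7.05 to 45.2%), beside 30.5% of all genes of that length. From 20 to 60 kb the share was 4 of 25 (16.0% beside 18.1%), and from 5 to 20 kb it was 3 of 24 (12.5% beside 12.2%). Under 5 kb it was 4 of 30, or 13.3% (interval 5.31 to 29.7%), beside 4.26%. These included Foxc1, Foxd3 and Foxe1. The lower bound of this class lies above its background, and the share rests on 4 genes. Over all lengths the members' bodies held 3.32 peaks per Mb, beside 3.89 per Mb in all gene bodies.

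Most of the gene body peaks of members lay in exons. Of 16 such peaks 8 were centered in a coding exon, or 50.0% (interval 28.0 to 72.0%), beside 13.0% of 4010 pairs of a peak and a gene over all protein-coding genes. A further 3 lay in an untranslated exon, 4 in an intron and 1 in the gene span outside protein-coding transcripts, whereas introns held 71.0% of the pairs over all genes. In 5 members, Foxa1, Foxe1, Foxp4, Pax1 and Pax5, a gene body peak was also the promoter peak. All of these but the Foxa1 peak lay in exons, and places outside the promoter interval were not compared. Members with a gene body peak were often short with few exons, so the comparison was repeated on genes under 20 kb, where 5 of 8 member peaks (62.5%, interval 30.6 to 86.3%) and 26.1% of those of all genes were in a coding exon. Coding sequence made up 2.86% of the summed length of the members and 3.52% over all genes, but its median share per gene was 11.7% against 8.002%. It took up 1407 of 2373 bp in Foxd3, 1659 of 3990 in Foxc1, 1113 of 2804 in Foxe1 and 1404 of 5491 in Foxa1. In Foxj2 it was 1695 of 25453 bp, in Pax1 1153 of 31371 and in Foxo3 2016 of 94915. The comparison under 20 kb was not matched for coding share or exon number, so it does not remove this difference. The 8 peaks included those in Foxa1, Foxc1, Foxd3, Foxe1, Foxj2, Foxo3 and Pax1. Foxc1 acts in eye and mesoderm, and Foxo3 in insulin and stress signaling. The Foxc1 peak lay 1516 bp, the Foxj2 peak 8289 bp and the Foxo3 peak 79463 bp downstream of the TSS, the last of these being a member outside the 40 kb window.

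The place within the coding sequence varied. The midpoint fell at 2% or less of the coding length in Foxj2 (1.95%), at 17.5% in Pax1, 22.2% in Foxe1 and 48.0% in Foxd3, and at 57.6% in Foxc1, 61.6% in Foxo3 and 68.7% in Foxa1. In 6 of the 8, all but Foxj2 and Pax1, it lay in the last coding exon of the transcript. Where a gene has 1 coding exon, as Foxc1, Foxd3 and Foxe1 do, that exon is always the last. Foxa1 and Foxo3 have 2 coding exons. The count therefore does not show a preference for last exons. The forkhead is shared by the Fox genes, and reads in it can match more than 1 place. Unique 36-base windows made up 91.6% of the Foxd3 peak, 97.3% of the Foxe1 peak and at least 98.8% of those in Foxa1, Foxc1, Foxj2 and Foxo3.

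**Figure D4:**
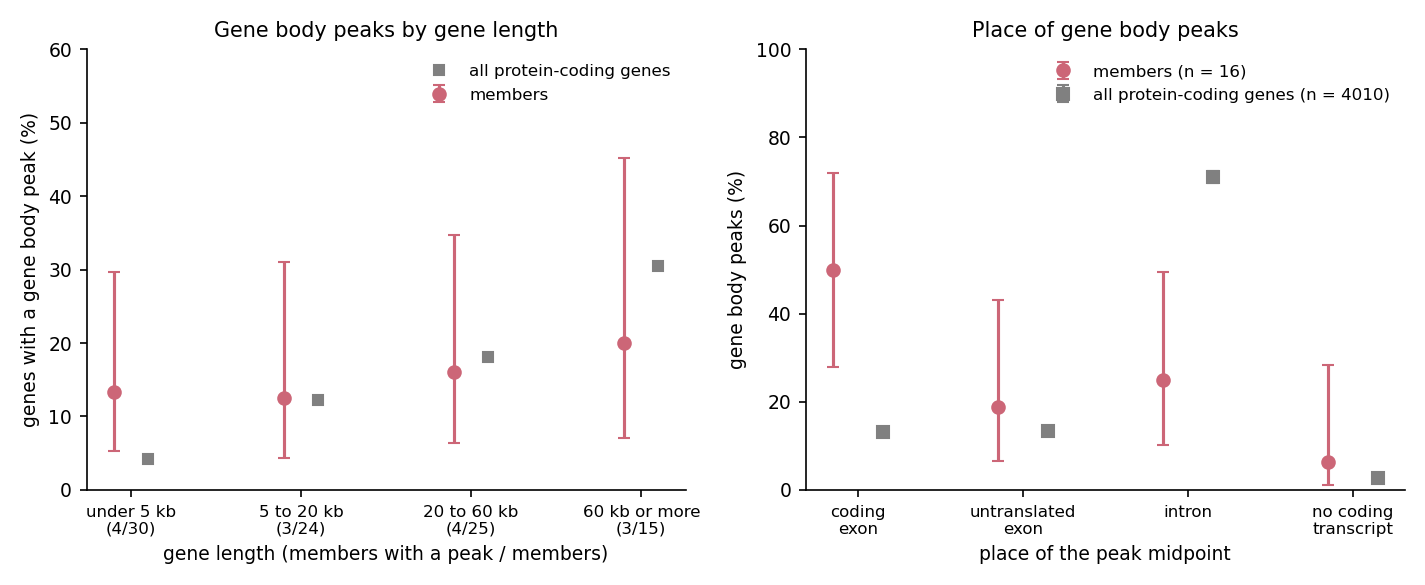
Left, percent of genes with a CTCFL peak in the gene body (y axis) by gene length (x axis), for members (circles, 95% Wilson intervals) and all protein-coding genes (squares). The squares rise from 4.26 to 30.5% with length, and the members run from 13.3% to 20%. Right, percent of gene body peaks (y axis) by the place of their midpoint (x axis), for 16 member peaks and 4010 pairs over all genes, with the same intervals. Coding exons hold 50.0% of the members' peaks and 13.0% of those over all genes, members included.

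The sequence under the peaks was searched for the CTCF-type consensus in the form CC, any 3 bases, AGG, any base, GGCGC, which has 14 positions of which 10 are fixed, on both strands and with up to 1 mismatch. It was found in 12 of the 16 promoter peaks of members (75.0%, interval 50.5 to 89.8%) and in 12 of their 16 gene body peaks, and these sets share peaks. Over all 67 peaks near members it was found in 39, or 58.2% (interval 46.3 to 69.3%), beside 43.9% of all 7436 peaks. The lower bound exceeds that background at this number of mismatches. In windows shifted by 2 kb to the left and right and as wide as the peak, it was found in 4.48% for the members and in 2.17% for all peaks. For the members' promoter and gene body peaks alone, such windows held it in 9.38 and 6.25%. The share in promoter or gene body peaks over all genes was not computed, so the 75.0% has no background of its own kind. Without a mismatch the consensus was in 11 of the 67, or 16.4% (interval 9.42 to 27.1%), beside 12.8%, and with up to 2 it was in 58, or 86.6% (interval 76.4 to 92.8%), beside 76.7%, so that these intervals contain the background. The members' peaks were richer in G and C, with a median of 56.5% beside 52.6%, and this was not taken into account. Their median width was 468 bp with a range of 235 to 804 bp, beside 454 bp for all peaks.

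At the promoters an exact match was present at Foxa2, Foxa3 and Pax9. A match with 1 mismatch was present at 9 more, a best match with 2 mismatches at Foxb2, Tbx2 and Lhx1, and one with 3 at Foxp4. Of the 12 matches with up to 1 mismatch 8 read along the strand of the gene and 4 against it. The 4 stretches below hold 150 bases of mm9 around the match in promoter peaks. They are examples from all 3 Foxa genes, and from Tbx18 as a member whose promoter did not meet the rule for CpG-rich. The midpoint of the Foxa1 peak lay in intron 1, and those of the others lay outside the gene. Further promoter peaks with a match, as at Foxd1 and Foxo6, also lay outside their gene. Each is printed 5′ to 3′ on the strand of its match, and capitals mark the 14 positions of the consensus.

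Foxa1 stretch, chr12:58646050-58646199, minus strand: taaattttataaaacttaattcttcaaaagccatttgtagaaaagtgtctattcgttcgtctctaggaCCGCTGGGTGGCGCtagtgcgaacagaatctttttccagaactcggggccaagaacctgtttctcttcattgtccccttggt
Foxa2 stretch, chr2:147874312-147874461, minus strand: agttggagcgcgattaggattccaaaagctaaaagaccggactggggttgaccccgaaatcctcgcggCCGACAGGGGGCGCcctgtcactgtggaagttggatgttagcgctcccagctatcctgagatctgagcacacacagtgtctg
Foxa3 stretch, chr7:19608930-19609079, minus strand: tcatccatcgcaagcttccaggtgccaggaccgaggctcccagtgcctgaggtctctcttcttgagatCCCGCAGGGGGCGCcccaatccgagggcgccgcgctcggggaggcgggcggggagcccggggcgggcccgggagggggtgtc
Tbx18 stretch, chr9:87626183-87626332, minus strand: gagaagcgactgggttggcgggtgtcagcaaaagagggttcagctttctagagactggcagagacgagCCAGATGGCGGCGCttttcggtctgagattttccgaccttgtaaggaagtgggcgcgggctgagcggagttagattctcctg

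Foxa2 and Foxa3 match at every fixed position. Against the consensus, counted from 1 at its 5′ end with the consensus base first, Foxa1 has A6G and Tbx18 has A6T. Foxa1 and Tbx18 thus differ at the first base of the AGG element.

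Sites of 30 bases are shown for the other exact matches in a promoter interval or gene body (Pax9, Sox10, Foxj2 and Lhx5), and for Gata2, whose upstream peak was the nearest of its family. Capitals again mark the consensus positions.

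Pax9 site, chr12:57790900-57790929, plus strand: atccggcgCCTGTAGGTGGCGCtgcgatga
Sox10 site, chr15:78993434-78993463, plus strand: aattccaaCCACGAGGGGGCGCcttcccgc
Foxj2 site, chr6:122778283-122778312, plus strand: aggctgggCCTCCAGGGGGCGCccggaagt
Lhx5 site, chr5:120890911-120890940, minus strand: acattgagCCACCAGGGGGCGCcaactcgc
Gata2 site, chr6:88139618-88139647, plus strand: acgcgaagCCGCCAGGTGGCGCtctgaacc

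These sites differ at the free positions, for instance in the 3 bases after CC, and hold a G or a T between AGG and GGCGC. Matches of peaks centered in coding exons of Foxa1, Foxd3, Foxe1, Foxo3 and Pax1, each with 1 mismatch, are shown next, because 8 of the 16 gene body peaks of members were centered there.

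Foxa1 site, chr12:58643387-58643416, minus strand: gggccacgGCGACAGGGGGCGCttcggagt
Foxd3 site, chr4:99323991-99324020, minus strand: caggtgctCCTGCTGGTGGCGCttgaagcg
Foxe1 site, chr4:46357201-46357230, minus strand: cttcccccGCTGCAGGGGGCGCttgcgtcg
Foxo3 site, chr10:41917104-41917133, plus strand: gcataagcCCGCCAGGAGGCGAtggctgcg
Pax1 site, chr2:147188242-147188271, plus strand: gaccggacCCGACAGGGGGCGAcaaactgt

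The substitutions were C1G in Foxa1 and Foxe1, A6T in Foxd3, and C14A in Foxo3 and Pax1. Foxc1 had a best match with 2 mismatches, C1G and A6C. Among the 28 peaks near members with exactly 1 mismatch, the mismatch was at position 14 in 9 (32.1%), at position 6 in 7 (25.0%) and at position 1 in 6 (21.4%). Over all 2315 such peaks these positions made up 13.5, 13.4 and 15.4%, and position 8 was the most frequent at 18.7%, beside 2 of 28 for the members. Positions 14, 6 and 1 were named as the most frequent among the members' 28 peaks, and no difference was tested. Where a peak held several matches of the same quality, the one nearest its midpoint was used. A match describes letters in the peak and not a site that was shown to be bound.

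Of the 69 pairs of a member and a peak within 40 kb, 31 were upstream and 38 downstream of the nearest TSS. The member was the nearest protein-coding gene in 41 pairs. Another gene was nearer in 28, or 40.6%, beside 59.4% of the 14459 pairs over all protein-coding genes, which share peaks and count each gene's neighbors. In 12 pairs, or 17.4%, the TSS of that nearer gene was within 1 kb of the peak, beside 25.4%. These were peaks near the TSS of a neighbor, as in the cases that follow. The Sox15 peak, 7325 bp downstream of the gene, was 3 bp from the TSS of Mpdu1, and the Sox30 peak 86 bp from that of Lsm11. The peak upstream of Foxs1 was 109 bp from the TSS of Dusp15, and a Tbx6 peak 3.5 bp from that of Aldoa. Peaks within 40 kb of Tbx10 were 104 bp from the TSS of Ndufv1 and 350.5 bp from that of Nudt8.

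In 22 members, or 23.4% (interval 16.0 to 32.9%), the window of 40 kb held a peak but the promoter interval and gene body did not, beside 23.6% of all protein-coding genes. The nearest of each family were Sox15, Foxd2 at 4885 bp upstream, Tbx1, a factor of the pharyngeal arches, at 3776.5 bp upstream, Gata2, and Pax4, a factor of pancreatic islets, at 35459 bp upstream. No Lhx gene was of this kind. The Pax4 peak was 4453 bp from the TSS of Snd1, which was nearer, and its best match had 4 mismatches. Foxd2, Tbx1 and Gata2 were the nearest protein-coding gene to their peaks.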

How the data were processed

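ChIP-sequencing covered 3 ES cell samples of 3 groups with 1 library each. These were V5 precipitations from induced and from non-induced cells, and a CTCF precipitation. The deposited list of peak intervals of the induced cells was used. The methods of the study state that its own reads were mapped to the mouse genome with ELAND. After naming the published data sets, they describe alignment to mm9 with BOWTIE and peak calling with MACS. That step kept unambiguously mapped unique reads and set a limit on the false discovery rate. Whether the deposited list came from that step is not stated. Its values are genome positions only, so counts of reads, depth and peak heights are unknown and no fold change or p-value could be computed.

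Peaks were compared with the mm9 genome and GENCODE genes in Python 3 (numpy, pandas), after the functions recovered planted peaks and motif sites in simulated data. Overlapping entries of 1 symbol on 1 strand were taken as 1 gene, which left 22265 genes from 22359 identifiers. Every member with a peak in the promoter interval or gene body was named, except 1 that is counted but not reported here, with the nearest of each family within 40 kb, those at each limit, and the farthest. Other names were chosen after their values were seen. Wilson intervals are at 95%. Members, lists and windows were chosen with earlier results of these data known. Alternatives covered windows, TSS choice, peak width, mappability, gene length and mismatches. The width was the one size of a peak available.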

Additional observations from a re-analysis of the deposited data

How the results depend on the processing

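The shares of members with a promoter, gene body or 40 kb peak and of peaks with the consensus were recomputed together with the peak width under 32 alternatives, and 28 of these stayed within the 95% interval (for the width, the quartiles) of the value reported. Leaving out peaks narrower than the median moved the share of members with a peak within 40 kb to 30.9% (all genes 27.7%), and a window of 100 kb moved it to 61.7% (all genes 60.4%). The share of peaks near members with the consensus was 16.4% without a mismatch (all peaks 12.8%) and 86.6% with up to 2 (all peaks 76.7%), as a stricter or looser consensus must give. The promoter share ranged from 11.7 to 24.5% and was above that of all genes in 10 of 11 alternatives, the exception being CpG-rich promoters (18.5 against 18.9%). Its own interval lay above all genes in 3 of them: with only the 5′ gene end (17.0 against 9.99%), within 5 kb (24.5 against 15.5%) and with Sox2 and Tbx3 included (17.7 against 11.3%). The gene body share ranged from 9.57 to 18.1%, and with the background weighted to the members' gene lengths stood at 14.9 beside 14.2%. Including Foxf1a, and the width of uniquely mapping peaks, were chosen after seeing the data. No paired analysis was possible because the groups hold 1 library apiece. With 6 to 42 genes a family, intervals limit what can be told apart between families.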

Other observations

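Foxf1a, whose symbol did not meet the rule, had no promoter or gene body peak and 1 peak within 40 kb, 19837.5 bp downstream of its TSS.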
